A study of Homo sapiens with 8 samples.

Results

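The genes described here are 35 genes of the endoplasmic reticulum (ER) chaperones and the unfolded protein response (UPR) in SW1990 cells, an established human pancreatic cancer line. They were taken by name from the 38637 genes of the count table, not by a cut on their values. They were chosen with earlier results of these data known. Of the 35, 34 had enough counts to be tested in each comparison, and ERO1B did not. The RNA-seq data cover 4 groups with 2 libraries each. Vector cells carried the empty vector and EBF2-OE cells overexpressed EBF2, a transcription factor that the study connects with the histone mark H3K4me1. Vehicle cells were the controls of GSK-LSD1 cells, which were treated with GSK-LSD1, an inhibitor of the H3K4 demethylase LSD1 (KDM1A). The sample titles give 2000 µM for GSK-LSD1, far above the doses named for the Western blot of treated SW1990 cells. The treatment time and the nature of the vehicle are not given in the sources used here. The methods describe lipid transfection of plasmids, and whether the overexpressing cells were a stable pool or a clone is not given either. In a figure legend the study calls the sequenced cells SW1990-luc. The labels number the libraries 2 and 3 in the EBF2 experiment and 1 and 2 in the GSK-LSD1 experiment, without saying whether a number stands for a separate culture, so the p-values measure only the spread between these libraries.

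The libraries held 20453362 to 27054876 counts on genes. EBF2 had 28 counts in each Vector library, 5818 in EBF2-OE 2 and 90100 in EBF2-OE 3, and 24 to 40 in the other 4 libraries, so the 2 EBF2-OE libraries carried very unequal amounts of the transgene. The keratins KRT7, KRT8 and KRT18 were at 459 TPM or above in every library and MUC1 at 123.5 TPM or above (TPM is a level per transcript length, rescaled to the same total in every library). The other ductal epithelial markers were near 0, with KRT19 at most at 1.57 TPM, EPCAM at 1.42 TPM and CDH1 at 1.12 TPM. Acinar, endocrine, endothelial and leukocyte markers did not exceed 1.07 TPM. Of the fibroblast markers, COL1A1 was at 30.5 to 45.2 TPM, COL1A2 at 6.56 to 10.2 TPM and PDGFRB at 5.36 to 16.8 TPM.

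The ER folds secreted and membrane proteins with the help of Hsp70 and Hsp90 type chaperones, lectin chaperones that bind sugar chains, and disulfide isomerases, and returns proteins that fail to fold to the cytosol for degradation. When unfolded proteins accumulate, the sensors IRE1 (ERN1), PERK (EIF2AK3) and ATF6 start the UPR. IRE1 splices the XBP1 mRNA, PERK slows translation and favours ATF4, and cleaved ATF6 enters the nucleus. Cleaved ATF6 and spliced XBP1 bind short promoter elements, among them the ER stress response element (ERSE), together with the CCAAT-binding factor NF-Y. The exocrine pancreas is known for a large secretory load. Gene counts as used here do not separate spliced from unspliced XBP1 and say nothing of sensor activity.

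The ERSE matches are shown because they are the letters that the UPR factors are known to bind. The genes were chosen in part as known targets of ATF6 and XBP1, which bind this element, so its frequency among them is a description and no independent finding. Promoter windows of RefSeq (GRCh38.p14, 250 bases before to 50 after an annotated start) were found for 31 of the 35 genes. They were searched on both strands for ERSE (CCAAT, 9 bases, CCACG), ERSE-II (ATTGG, 1 base, CCACG) and the core of the UPR element (TGACGTG). ERSE was present in 9 of the 31 genes (29%), against 0.0916% of all 27305 genes with a window (0.0769% of all 35116 windows). The capitals below mark the fixed letters of ERSE, each line reads 5′ to 3′ on the strand of the match and the positions count from the annotated start.
HSPA5, chr9:125241391-125241409, minus strand, -66 to -48: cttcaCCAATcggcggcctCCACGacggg
HSP90B1, chr12:103930216-103930234, plus strand, -194 to -176: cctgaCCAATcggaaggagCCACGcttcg
HSP90B1, chr12:103930321-103930339, minus strand, -89 to -71: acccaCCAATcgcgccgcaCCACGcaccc
CRELD2, chr22:49918554-49918572, minus strand, -80 to -62: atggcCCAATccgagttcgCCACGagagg
CALR, chr19:12938384-12938402, minus strand, -225 to -207: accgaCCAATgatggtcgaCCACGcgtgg
CANX, chr5:179698778-179698796, plus strand, -151 to -133: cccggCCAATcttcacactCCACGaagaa
PDIA6, chr2:10812853-10812871, minus strand, -86 to -68: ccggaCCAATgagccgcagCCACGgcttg
ERO1B, chr1:236282183-236282201, plus strand, -243 to -225: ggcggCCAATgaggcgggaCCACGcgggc
XBP1, chr22:28800603-28800621, minus strand, -52 to -34: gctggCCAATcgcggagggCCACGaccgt
SERP1, chr3:150546710-150546728, plus strand, -232 to -214: aaacaCCAATtcgctgtctCCACGcatga

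HSP90B1 was the gene with 2 exact ERSE matches, and they lie in opposite orientations. Variants that differ from the fixed letters were not searched, so a gene without a match may still hold one. The CANX and PDIA6 matches belong to 1 of several annotated starts of these genes. The coordinates and the 5 bases on either side are those of the reference genome, and a match describes letters in a window, not binding in these cells.

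ERSE-II was found in 3 of the 31 genes, against 0.0696% of all genes with a window (0.0541% of all windows). It is shown as the second known element of this response, in HYOU1, SDF2L1 and HERPUD1. The capitals again mark the fixed letters.
HYOU1, chr11:119057274-119057284, plus strand, -79 to -69: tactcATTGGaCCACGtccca
HYOU1, chr11:119057380-119057390, plus strand, -185 to -175: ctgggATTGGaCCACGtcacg
SDF2L1, chr22:21642114-21642124, minus strand, -188 to -178: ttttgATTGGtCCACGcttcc
HERPUD1, chr16:56932025-56932035, plus strand, -117 to -107: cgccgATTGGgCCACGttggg

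The UPR element core was found in HYOU1 and DNAJC10, against 2.4% of all genes with a window (1.97% of all windows). In HYOU1 it overlaps the farther ERSE-II match. HSPA5 codes for BiP, the Hsp70 chaperone of the ER, and its last 150 bases before the start (chr9:125241344-125241493, minus strand) carry the ERSE match, in capitals, close to the start.
HSPA5 upstream: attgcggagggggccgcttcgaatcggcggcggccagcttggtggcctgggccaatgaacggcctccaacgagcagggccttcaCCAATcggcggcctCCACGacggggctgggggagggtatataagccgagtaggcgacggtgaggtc

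The 35 genes together made up 0.7465% and 0.7643% of the TPM total in Vector 2 and 3, 0.7803% and 0.7892% in EBF2-OE 2 and 3, 0.5047% and 0.4966% in Vehicle 1 and 2, and 0.6517% and 0.6654% in GSK-LSD1 1 and 2. The 4 libraries of the EBF2 experiment were highest, the 2 GSK-LSD1 libraries lay between, and the 2 Vehicle libraries were lowest. Levels differed widely among the genes. Per length, calreticulin (CALR) was the highest at a median of 1708 TPM over the 8 libraries, followed by GRP94 (HSP90B1) at 857 TPM, HSPA5 at 799 TPM and the disulfide isomerase P4HB at 797 TPM. The neighbours HSP90B1, HSPA5 and P4HB overlapped in their ranges over the 8 libraries (577 to 1101, 391 to 1124 and 673 to 944 TPM), so their order is not fixed. The lowest tested genes by TPM were DNAJC10 at 9.0 TPM and ERN1 at 2.90 TPM, and the sensors ATF6 and EIF2AK3 were at 22.9 and 12.4 TPM. The TPM of DNAJC10 is divided by a listed length of 21076 bases. By counts it was not low, with 1366 to 1886 per library, against 214 to 412 for ERN1. ERO1B, an oxidase that recharges disulfide isomerases, had 0 to 5 counts per library, against 973 to 2076 for its paralog ERO1A. Their medians were 0.042 and 26.7 TPM.

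**Figure D1:**
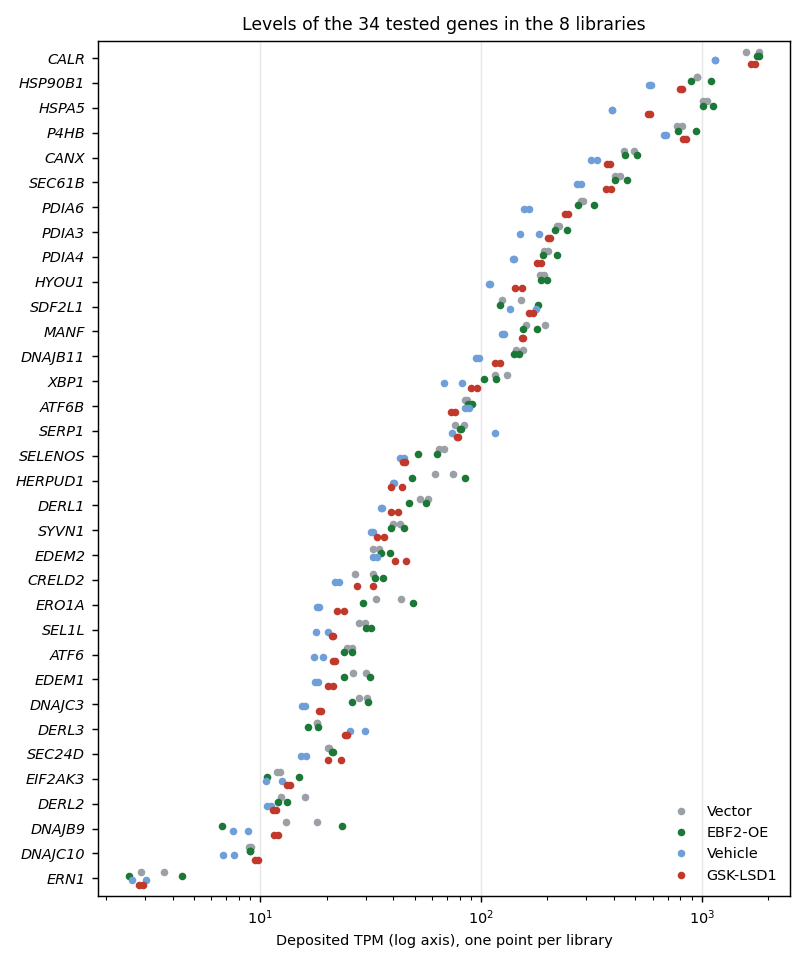
Deposited TPM of the 34 tested genes on a log axis, with 1 point per library and genes in order of their median over the 8 libraries. CALR leads at a median of 1708 TPM and ERN1 is lowest at 2.90 TPM, and in HSPA5 the Vehicle libraries lie below GSK-LSD1 and these below the EBF2 experiment.

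The comparison of GSK-LSD1 with Vehicle asks which of these genes differ after treatment with the LSD1 inhibitor at the labelled dose. The ER folding machinery was higher in GSK-LSD1-treated cells: 23 of the 34 genes passed the test as higher (edgeR quasi-likelihood test, Benjamini-Hochberg adjusted p under 0.05 over all 16059 genes tested), against 9.86% of all genes tested, and 1 passed as lower, against 8.87% of all genes tested. In these bulk libraries, a change in some of the cells cannot be told apart from a smaller change in all of them. The changes were small. The median log2 fold change of the 34 genes was 0.32 against -0.0059 for all genes tested, and 3 genes, PDIA6, CALR and HSPA5, passed as higher with a fold above 1.5, against 2.53% of all genes tested, and 0 as lower, against 2.04%. In 29 of the 34, both GSK-LSD1 libraries lay above both Vehicle libraries, against 29.9% of all genes tested, and in 2, ATF6B and DERL3, both lay below, against 30.3%. At an unadjusted p under 0.05, 26 were higher, against 16.6% of all genes tested. The share of genes that passed differed by role, with 8 of 9 Hsp70 and Hsp90 chaperones and co-factors, both lectin chaperones, all 6 tested disulfide isomerases and oxidases, 3 of 9 genes of ER-associated degradation (ERAD), 2 of 5 sensors and transcription factors and 2 of 3 genes of translocation and export passing as higher. Whether the roles differ from each other was not tested.

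Among the Hsp70 and Hsp90 chaperones, HSPA5 (chr9:125234853-125241343) was at 588 and 582 CPM (gene counts brought to the same library size with TMM factors) in Vehicle 1 and 2 and at 881 CPM in both GSK-LSD1 libraries. Its log2 fold change was 0.59 (SE 0.041, adjusted p = 1.12e-05), a 1.505-fold level, and the gap between the groups was far larger than that within them. HSP90B1 (chr12:103930410-103947926), the Hsp90 of the ER lumen, rose from 616 and 621 CPM to 898 and 857 CPM, by 0.50 on the log2 scale (SE 0.043, adjusted p = 4.07e-05). HYOU1, a large Hsp70-related protein that acts as a nucleotide exchange factor for BiP, rose from 203 and 202 CPM to 274 and 288 CPM (log2 fold change 0.47, SE 0.050, adjusted p = 0.000151). In all 3 genes the groups did not overlap.

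DNAJB9 (ERdj4), a J-domain co-factor of BiP, was low, at 8.10 and 6.87 CPM in Vehicle and 11.5 and 10.7 CPM in GSK-LSD1, and its log2 fold change of 0.57 had a wider 95% interval of 0.28 to 0.85 (adjusted p = 0.0116). CRELD2, a secreted ER stress protein, went from 26.6 and 25.3 CPM to 33.2 and 38.0 CPM (log2 fold change 0.46, SE 0.085, adjusted p = 0.00461). DNAJB11 (0.34), DNAJC3 (0.28) and the secreted factor MANF (0.33) also passed as higher. SDF2L1, a partner of DNAJB11, did not pass, with a log2 fold change of 0.14 and an interval of -0.10 to 0.39. Its Vehicle libraries differed at 56.4 and 42.1 CPM and enclosed the GSK-LSD1 values of 53.9 and 54.9 CPM.

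The lectin chaperones hold glycoproteins during folding. CALR (chr19:12938609-12944489) rose from 841 and 829 CPM to 1252 and 1281 CPM, a log2 fold change of 0.60 (SE 0.040, adjusted p = 8.29e-06). Its membrane-bound relative calnexin (CANX) rose less, from 723 and 752 CPM to 908 and 855 CPM, with a log2 fold change of 0.26 (adjusted p = 0.00339). The 95% intervals of the log2 fold changes were 0.51 to 0.69 for CALR and 0.16 to 0.36 for CANX, and they did not overlap.

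The disulfide isomerases and oxidases form and rearrange disulfide bonds. PDIA6 (chr2:10783391-10837712) had the highest fold change of the 34 genes, from 190.0 and 198 CPM in Vehicle to 300.5 and 303 CPM in GSK-LSD1 (log2 fold change 0.64, SE 0.049, adjusted p = 2.08e-05). It shares 1720 bases with ATP6V1C2 on the opposite strand, and the strand setting of the counting is not given in the sources used here. DNAJC10 (ERdj5), a reductase, rose from 54.5 and 60.8 CPM to 81.7 and 76.4 CPM (log2 fold change 0.45, adjusted p = 0.00136). PDIA4 rose from 174 and 169 CPM to 228 and 230 CPM (log2 fold change 0.41, adjusted p = 0.000313). The major isomerase P4HB and the oxidase ERO1A passed with log2 fold changes of 0.32 and 0.37. PDIA3, the isomerase that works with the lectin chaperones, passed at 0.32 (adjusted p = 0.0224), and its Vehicle libraries were apart, at 259 and 210 CPM.

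ERAD recognises, extracts and ubiquitinates misfolded proteins, and most of its genes did not pass. The 3 of 9 that passed as higher stand against 9.86% of all genes tested. In 8 of the 9, both GSK-LSD1 libraries lay above both Vehicle libraries, against 29.9% of all genes tested. In DERL3 both lay below, against 30.3%. EDEM2, which trims mannose from glycoproteins, went from 26.1 and 26.8 CPM to 33.98 and 36.9 CPM (log2 fold change 0.42, adjusted p = 0.00391). It shares its whole gene body with the readthrough gene MMP24-AS1-EDEM2 on the same strand, so its count depends on how reads were divided between them. EDEM1 (0.25) and the Derlin DERL1 (0.23) also passed as higher. The ubiquitin ligase SYVN1 (HRD1) and its partner SEL1L had log2 fold changes of 0.16 and 0.19, with adjusted p of 0.111 and 0.0748. HERPUD1 was at 0.08 (interval -0.07 to 0.24), SELENOS at 0.06, DERL2 at 0.11 and DERL3 at -0.15, and none of these passed. DERL3 shares 3512 bases with the more highly counted SMARCB1 on the opposite strand.

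Of the sensors and transcription factors, XBP1 (chr22:28794560-28800569) was at 61.0 and 49.6 CPM in Vehicle and at 68.6 and 71.3 CPM in GSK-LSD1 (log2 fold change 0.34, SE 0.089, adjusted p = 0.024). ATF6 was at 53.0 and 57.7 CPM and at 66.4 CPM in both treated libraries (log2 fold change 0.26, SE 0.063, adjusted p = 0.0164). ATF6B, a paralog of ATF6, was the gene that passed as lower, from 85.6 and 88.0 CPM to 76.2 and 77.3 CPM (log2 fold change -0.18, SE 0.055, adjusted p = 0.0452). ATF6B thus lay on the other side from ATF6, but close to the threshold, and it did not pass with DESeq2 (log2 fold change -0.18). EIF2AK3 was at 23.6 and 19.6 CPM and at 26.4 and 25.1 CPM (log2 fold change 0.25, adjusted p = 0.114). ERN1 was at 12.7 and 10.8 CPM and at 12.1 and 12.3 CPM, with a log2 fold change of 0.06 and an interval of -0.20 to 0.31. Neither of these last 2 sensors passed.

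In translocation and export, SEC61B, a subunit of the protein-conducting channel, rose from 59.0 and 60.7 CPM to 86.2 and 80.0 CPM (log2 fold change 0.47, SE 0.061, adjusted p = 0.000557). SEC24D, a cargo adaptor of the COPII coat that carries proteins out of the ER, rose from 27.6 and 25.8 CPM to 35.6 and 39.9 CPM (log2 fold change 0.50, SE 0.082, adjusted p = 0.00226). SERP1, which stabilises membrane proteins at the channel, was at 134 and 84.3 CPM in Vehicle and at 92.5 and 91.7 CPM in GSK-LSD1. The 2 Vehicle libraries of SERP1 lay on either side of the treated ones, and it did not pass (log2 fold change -0.24, interval -0.58 to 0.10).

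The number that passed varied with the libraries in the fit. In 1 fit of all 8 libraries, 4 genes passed as higher (HSPA5, PDIA6, CALR and HYOU1), and without GSK-LSD1 1 or GSK-LSD1 2 the count was 15 or 14. XBP1 did not pass without Vehicle 2 (log2 fold change 0.19) or without either GSK-LSD1 library, and ATF6 and DNAJB9 did not pass without either GSK-LSD1 library. CRELD2 did not pass without GSK-LSD1 2 (0.36).

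**Figure D2:**
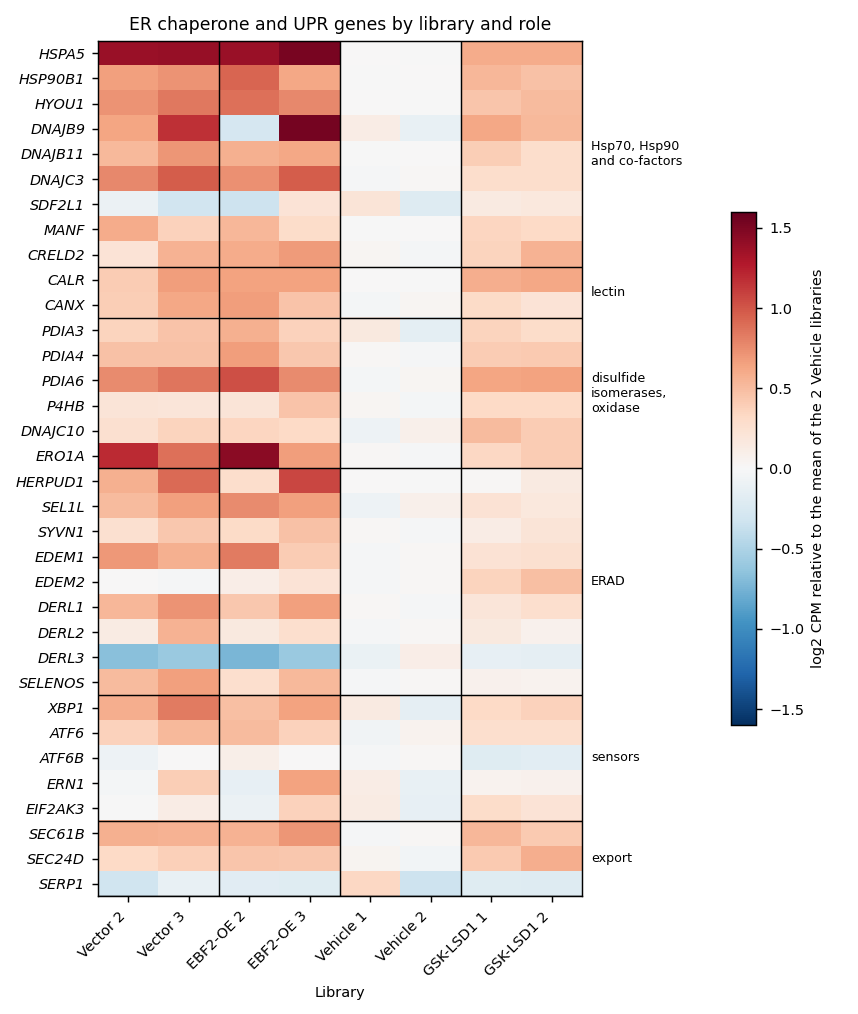
log2 CPM of the 34 tested genes in each of the 8 libraries (columns), relative to the mean of the 2 Vehicle libraries, with genes (rows) grouped by role. The medians over the genes were 0.32 and 0.29 in the GSK-LSD1 libraries and 0.44 to 0.56 in the 4 libraries of the EBF2 experiment, and DERL3 is the row that is lowest in that experiment.

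Other genes of the secretory pathway were read in the same fit, from lists written with the earlier results of these data known. Of all genes tested in this fit, 9.86% passed as higher and 8.87% as lower. Of 20 genes of the translocon, the signal peptidase and the oligosaccharyltransferase, which bring new proteins into the ER and add sugar chains, 16 passed as higher and 0 as lower, with a median log2 fold change of 0.30. The signal peptidase subunit SEC11C (0.59) and the oligosaccharyltransferase subunit RPN2 (0.45) were among them. Of 18 COPII, cargo receptor and retrieval genes, 16 passed as higher and 0 as lower (median 0.29). SEC23B, the inner coat partner of the SEC24 proteins, rose from 42.4 and 45.9 CPM to 66.8 and 67.7 CPM (log2 fold change 0.61, adjusted p = 0.000149).

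Of 19 glycan processing and other folding factors, 10 passed as higher and 0 as lower, with the peptidyl-prolyl isomerase PPIB at 0.56. Of 20 further ERAD genes, 3 passed as higher (OS9, ERLEC1 and RNF5) and 0 as lower, with a median of 0.08. OS9 and ERLEC1 are lectins of ERAD and RNF5 is a ubiquitin ligase. The 2 ERAD lists thus stood at 33.3% and 15% of their genes, and the folding, translocation and COPII lists at 52.6% or more. The share of all genes tested was 9.86%.

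Of 11 genes of the PERK, ATF4 and CHOP arm, 3 passed as higher and 0 as lower, against 9.86% and 8.87% of all genes tested. DDIT3, which codes for the transcription factor CHOP, went from 6.59 and 7.35 CPM to 11.9 and 12.5 CPM (log2 fold change 0.81, SE 0.12, adjusted p = 0.00117), and NUPR1 and TRIB3 had log2 fold changes of 0.59 and 0.55. ATF4 itself was at 234 CPM in both Vehicle libraries and at 209 and 214 CPM in GSK-LSD1. Among 8 tested genes of the site proteases that cleave ATF6, the CREB3 family and NF-Y, 0 passed as higher, and NFYB, a subunit of NF-Y, passed as lower (log2 fold change -0.29, adjusted p = 0.0218). A further list held 15 chaperones outside the ER, cytosolic except for the mitochondrial HSPD1 and HSPE1. Of these 15, 2 Hsp70-related genes passed as higher (HSPA4L, log2 fold change 0.59, and HSPA4) and HSP90AB1 passed as lower (-0.12). The share of this list that passed as higher was 13.3%, near the 9.86% of all genes tested.

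**Figure D3:**
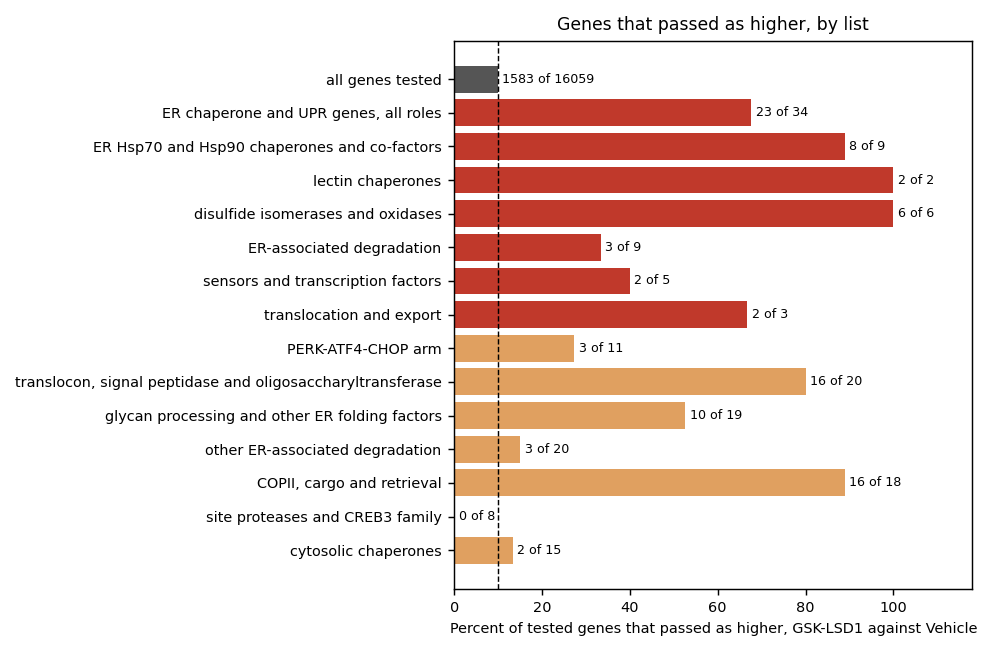
Percent of the tested genes of each list that passed as higher in GSK-LSD1 against Vehicle (horizontal bars, with the number passed of the number tested, in grey for all genes, red for the ER chaperone and UPR genes and orange for other lists), and the share of all genes tested (9.86%, dashed line). The bars of the folding, translocation and COPII lists reach 52.6% or more. Those of other ERAD and of the list labelled cytosolic chaperones stand at 15% and 13.3%. The latter list includes the mitochondrial chaperones HSPD1 and HSPE1.

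Of the 8 tested genes with an ERSE match, 7 passed as higher with GSK-LSD1 (median log2 fold change 0.48), the exception being SERP1. Of the 26 without an ERSE match or without a window, 16 passed as higher (median 0.27). Outside the 35 genes, 7 tested genes had an ERSE match, of which 2 passed as higher and 1 as lower. Of all genes tested, 9.86% passed as higher and 8.87% as lower. HYOU1 was the gene with ERSE-II that passed, while SDF2L1 and HERPUD1 did not. No test was made of the difference between genes with and without a match.

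The comparison of EBF2-OE with Vector asks whether the same genes change when EBF2 is overexpressed. None of the 34 genes passed in either direction by edgeR, 0 had an unadjusted p under 0.05, and 0 passed with DESeq2. The background was the same, since 0% of the 15560 genes tested passed in either direction (smallest adjusted p = 0.208), and 0.945% were higher and 0.392% lower at an unadjusted p under 0.05. EBF2 itself did not pass either, with a log2 fold change of 10.7 (unadjusted p = 0.000421 by edgeR). Not passing in this comparison therefore does not show a lack of response. The log2 fold changes of the 34 genes lay between -0.17 and 0.25 with a median of 0.07, against 0.00348 for all genes tested. In 4 genes, CRELD2, EDEM2, P4HB and SEC24D, both EBF2-OE libraries lay above both Vector libraries, against 10.6% of all genes tested, and in 0 genes both lay below, against 11.3%.

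HSPA5 was at 1519 and 1537 CPM in Vector 2 and 3 and at 1530 and 1669 CPM in EBF2-OE 2 and 3, with a log2 fold change of 0.08 and a 95% interval of -0.18 to 0.34. HSP90B1 was at 977 and 1022 CPM and at 1178 and 947 CPM (0.10, interval -0.21 to 0.41), so that the EBF2-OE libraries enclosed the Vector libraries. These intervals leave room for changes of either sign.

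XBP1 was at 82.3 and 98.1 CPM in Vector and at 76.9 and 86.1 CPM in EBF2-OE (-0.13, interval -0.49 to 0.22). ATF6 was at 71.2 and 79.2 CPM and at 78.8 and 71.6 CPM (0.01, interval -0.29 to 0.31), and ATF6B at 81.9 and 87.1 CPM and at 92.2 and 86.8 CPM (0.09, interval -0.19 to 0.38). EIF2AK3 was at 21.5 and 23.3 CPM and at 20.2 and 27.8 CPM (0.11), and ERN1 at 11.5 and 15.4 CPM and at 10.7 and 18.2 CPM (0.12, interval -0.63 to 0.86). All 5 genes overlapped between the groups.

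The smallest unadjusted p among the 34 was that of CRELD2, at 30.2 and 38.2 CPM in Vector and 39.1 and 41.5 CPM in EBF2-OE (log2 fold change 0.25, interval -0.14 to 0.64, unadjusted p = 0.17 and adjusted p = 1 by edgeR). EDEM2 was at 26.7 and 26.1 CPM and at 28.6 and 30.7 CPM (0.18), and P4HB at 868 and 865 CPM and at 871 and 1037 CPM (0.15). SELENOS, an adaptor of ERAD, was at 48.7 and 53.8 CPM and at 41.1 and 49.2 CPM (-0.17), and SEL1L at 88.3 and 98.0 CPM and at 105 and 98.0 CPM (0.13).

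The spread in this experiment was wider, with a biological coefficient of variation of 19% against 5.87% in the GSK-LSD1 experiment. Some of the genes differed more between libraries 2 and 3 than between the groups. DNAJB9 was at 11.5 and 16.8 CPM in Vector 2 and 3 and at 6.196 and 21.5 CPM in EBF2-OE 2 and 3, and HERPUD1, a stress-induced ERAD protein, was at 64.6 and 81.9 CPM and at 53.3 and 91.4 CPM. Both were higher in the libraries numbered 3. ERO1A went the other way, at 87.0 and 70.1 CPM and at 103.7 and 60.7 CPM. What the numbers stand for is not given, and the part of the unequal EBF2 counts in these gaps was not tested.

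The further lists gave 0 passing genes in this comparison too. The 11 genes of the PERK, ATF4 and CHOP arm had a median log2 fold change of -0.31, against 0.00348 for all genes tested. In 6 of them both EBF2-OE libraries lay below both Vector libraries, against 11.3% of all genes tested. Some of the others differed more between libraries 2 and 3 than between the groups. ATF3 was at 60.7 and 171 CPM in Vector and at 32.7 and 202 CPM in EBF2-OE (0.05). PPP1R15A was at 69.6 and 214 CPM and at 31.8 and 179 CPM (-0.40, interval -2.41 to 1.61). DDIT3 was at 24.6 and 25.03 CPM in Vector and at 14.8 and 19.2 CPM in EBF2-OE (-0.53, unadjusted p = 0.0298 and adjusted p = 1 by edgeR). CHAC1, a glutathione-degrading target of this arm, was at 7.14 and 9.20 CPM and at 4.90 and 4.95 CPM (-0.72, adjusted p = 1).

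The 2 control groups belong to different treatments, called the EBF2 and the GSK-LSD1 experiment here, and the labels do not say whether these were run together. The vector, the vehicle and everything else that separates the 2 groups therefore cannot be told apart. The ER genes were higher in Vector than in Vehicle: 20 of 34 passed as higher, against 13.6% of the 16019 genes tested, and DERL3 passed as lower, against 13.2%. Of the 20, 12 had a fold above 1.5, against 5.79% of all genes tested, and DERL3 also passed this limit, against 10.2% for lower genes. At an unadjusted p under 0.05, 26 were higher, against 21.9% of all genes tested. The median log2 fold change was 0.49, against 0.00231 for all genes tested. This comparison shares the Vector libraries with that of EBF2-OE and the Vehicle libraries with that of GSK-LSD1, so its values are set beside theirs with no measure of likeness.

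HSPA5 differed most, at 2.61-fold (log2 fold change 1.38, SE 0.061, adjusted p = 0.00577), and the Vector libraries, at 1519 and 1537 CPM, lay far above the Vehicle libraries, at 588 and 582 CPM. Its log2 fold changes were thus 1.38 in Vector against Vehicle, 0.59 with GSK-LSD1 and 0.08 with EBF2-OE. ERO1A followed at 1.04 (adjusted p = 0.00976), with 87.0 and 70.1 CPM in Vector and 38.8 and 37.5 CPM in Vehicle. DNAJB9 (0.92), DNAJC3 (0.87), PDIA6 (0.81) and HYOU1 (0.78) came next. DNAJC3, which codes for p58IPK, an inhibitor of PERK and co-factor of BiP, was at 69.8 and 79.9 CPM in Vector and at 40.5 and 41.3 CPM in Vehicle. PDIA6 was at 328 and 352 CPM in Vector and HYOU1 at 332 and 362 CPM.

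Of the ERAD genes, 5 passed as higher, HERPUD1, SEL1L, SELENOS, EDEM1 and DERL1, of which EDEM1 and DERL1 had also passed with GSK-LSD1. Whether the fold changes of the 2 comparisons differ was not tested. HERPUD1 was at 43.8 and 43.6 CPM in Vehicle (log2 fold change 0.74, adjusted p = 0.0163), and SEL1L and SELENOS both had log2 fold changes of 0.58. EDEM1 and DERL1 were at 0.63 and 0.62, with EDEM1 at 77.8 and 71.2 CPM in Vector and 47.7 and 48.7 CPM in Vehicle and DERL1 at 63.3 and 72.2 CPM and 44.4 and 43.6 CPM. DERL3, the lower gene, was at 25.3 and 26.7 CPM in Vector and 37.4 and 43.2 CPM in Vehicle (-0.63, adjusted p = 0.0165), with the reservation on SMARCB1 given above. EDEM2, which passed with GSK-LSD1, had a log2 fold change of -0.0042 here.

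XBP1 (log2 fold change 0.70, adjusted p = 0.0224), HSP90B1 (0.69, adjusted p = 0.00693) and ATF6 (0.44, adjusted p = 0.0276) passed as higher. ATF6B (-0.04), ERN1 (0.20) and EIF2AK3 (0.05) did not pass. The number of genes that passed fell when either Vehicle library was left out, since the spread was then estimated from the Vector libraries alone. The median log2 fold change stayed at 0.49 without Vehicle 1 and 0.51 without Vehicle 2.

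Of the PERK, ATF4 and CHOP arm, 8 of 11 genes passed as higher in Vector. PPP1R15A, the phosphatase subunit that restores translation, was at 69.6 and 214 CPM in Vector 2 and 3 and at 28.5 and 32.4 CPM in Vehicle (log2 fold change 2.21, SE 0.50, adjusted p = 0.03), and ATF3 was at 60.7 and 171 CPM and at 28.6 and 26.2 CPM (2.08). Both were much higher in Vector 3 than in Vector 2. CHAC1 (2.11) and DDIT3 (1.83, adjusted p = 0.00577) had closer Vector libraries. Of the other lists, 11 of 18 COPII genes, 9 of 20 translocon genes (SEC11C at 1.26) and 5 of 19 folding factors passed as higher. So did 4 of 20 further ERAD genes and 9 of 15 chaperones outside the ER. The share of all genes tested was 13.6%. The shares of the folding factors (26.3%) and the further ERAD genes (20%) were the closest to it among these 5 lists. The further genes that passed as lower were HSPB1 (-0.93), NFYB (-0.84), CREB3L4 (-0.70), the glucosidase subunit PRKCSH (-0.44), SEC11A (-0.38) and HSPA1A (-0.34). Of all genes tested, 13.2% passed as lower. HSPA1A is uncertain, because how reads matching both it and its near-identical copy HSPA1B were counted is not given. Of the site protease, CREB3 and NF-Y genes, 1 passed as higher.

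**Figure D4:**
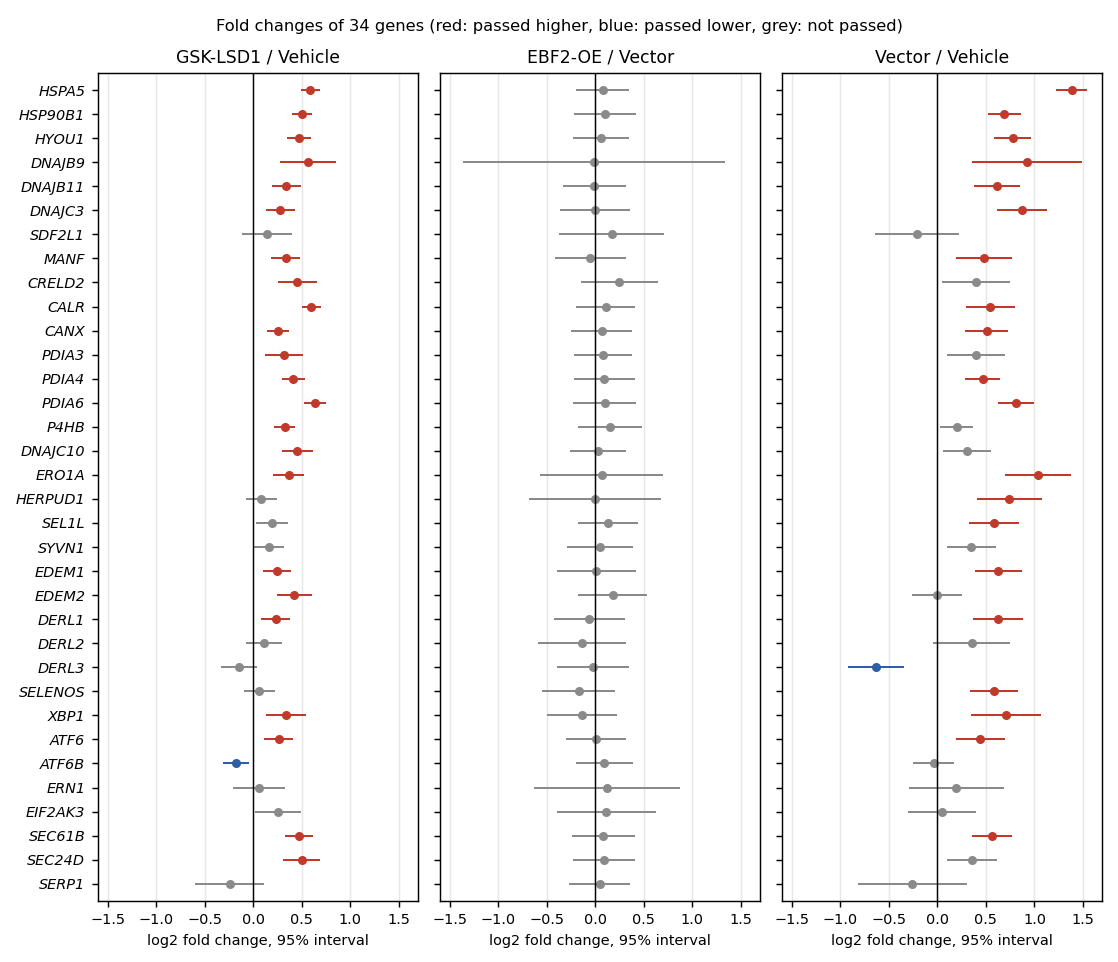
log2 fold changes of the 34 tested genes with 95% intervals from edgeR in GSK-LSD1 against Vehicle, EBF2-OE against Vector and Vector against Vehicle, with genes in the order of their roles. In GSK-LSD1, 23 genes passed as higher and ATF6B as lower, in EBF2-OE all intervals include 0, and in Vector against Vehicle 20 passed as higher and DERL3 as lower.

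The difference between the GSK-LSD1 effect and the EBF2-OE effect was tested itself, over all 8 libraries. None of the 34 genes passed (0% of all 16558 genes tested, smallest adjusted p among the 34 = 0.235 by edgeR, for HSPA5). EBF2 itself did not pass in this fit (difference of log2 fold changes -10.3, adjusted p = 0.286 by edgeR). Not passing therefore does not show that the responses to the 2 treatments were alike. At an unadjusted p under 0.05, 12 of the 34 genes had a higher effect with GSK-LSD1, against 4.27% of all genes tested, and 0 a lower one, against 3.39%. They included HSPA5 (difference of log2 fold changes 0.52, SE 0.11), PDIA6 (0.55, SE 0.14), CALR (0.50, SE 0.14), HYOU1 (0.42, SE 0.12) and XBP1 (0.48, SE 0.19). Without the low-count filter, over 27234 genes, 3 of these genes passed, HSPA5, CALR and PDIA6 (edgeR adjusted p = 0.00899, 0.0142 and 0.028), so this call depends on the filter.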

How the data were processed

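Poly(A)-selected RNA of 8 SW1990 libraries was sequenced. The authors used HISAT2 for alignment to hg38 and deposited raw gene counts made with HTSeq, together with gene lengths and TPM. The strand setting is not given in the sources used here. The deposited TPM was checked to be the count over the listed length, rescaled to 1e+06. Tests used the raw counts in edgeR 4.0.16 (R 4.3.3): TMM, filterByExpr with a minimum count of 10, quasi-likelihood F test, two-sided, Benjamini-Hochberg adjustment over all genes tested. A gene passed at an adjusted p under 0.05, and a fold limit of 1.5 was added where stated. Standard errors come from the test statistic. CPM uses TMM factors of all 8 libraries, so ratios of printed CPM can differ slightly from fitted fold changes. Each comparison used its own 4 libraries, and the difference of effects all 8. The scripts were tested on simulated data.

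In each comparison, HSPA5, HSP90B1, XBP1, ATF6, ATF6B, ERN1 and EIF2AK3 were named, with up to 12 passing genes by fold change (filled to 6 by the smallest p), and up to 5 passing genes of the further lists per direction. Other genes were named after their values were seen. The genes and lists were chosen with earlier results of these data known. Alternatives were DESeq2 1.42.0, its size factors, other filters, 1 fit of all libraries, limma 3.58.1 on log2(TPM + 1), a replicate block, unadjusted p and leaving out each library.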

Additional observations from a re-analysis of the deposited data

How the results depend on the processing

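With 2 libraries per group, the intervals of some low genes were wide, above all in EBF2-OE against Vector, where those of ERN1 and DNAJB9 were -0.63 to 0.86 and -1.35 to 1.33. Where a library was left out, the lone library of its group was assumed to vary like the other group.

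For GSK-LSD1 against Vehicle, the count of ER genes that passed as higher was 4 in a fit of all 8 libraries and 14 to 25 when 1 library was left out. The count as lower was 0 with DESeq2, with no filter, with limma and in the fit of all 8 libraries, and 0 to 1 when 1 library was left out. The median was 0.32 in the fit of all 8 libraries, 0.29 with limma and 0.28 to 0.37 when 1 library was left out, and 1 gene passed with a fold above 1.5 with limma (1 to 4 when 1 library was left out). For Vector against Vehicle, leaving out 1 library gave 1 to 27 genes as higher and 0 to 1 as lower, and 1 to 15 and 0 to 1 with a fold above 1.5. With limma, 0 were lower with a fold above 1.5. For the difference of effects, 3 genes were higher with no filter and 12 at an unadjusted p. For EBF2-OE, 0 genes passed under any of these settings. The cause was not tested.

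Some fold changes near 0 turned sign. In EBF2-OE against Vector, ATF6 was at -0.0028 with no filter and at -0.019 with limma. When 1 library was left out, ATF6 ranged from -0.050 to 0.078 (negative without Vector 2 or EBF2-OE 2), ERN1 from -0.34 to 0.46 (negative without Vector 2 or EBF2-OE 3) and HSP90B1 from -0.055 to 0.23 (negative without EBF2-OE 2). HSPA5 ranged from -0.0076 to 0.15, EIF2AK3 from -0.16 to 0.34 and P4HB from -0.0020 to 0.28, each negative without EBF2-OE 3. ERN1 ranged from -0.063 to 0.18 with GSK-LSD1 (negative without Vehicle 2) and from -0.020 to 0.39 in Vector against Vehicle (negative without Vector 3). In the latter, ATF6B ranged from -0.074 to 0.00054 (positive without Vector 2) and EIF2AK3 from -0.086 to 0.19 (negative without Vehicle 2).

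With the replicate number as a block, 23 ER genes were higher and 0 lower with GSK-LSD1 (median 0.33) and 0 passed with EBF2-OE. The deviations of same-numbered libraries correlated at 0.344 over genes in the EBF2 experiment and at -0.0324 in the GSK-LSD1 experiment, with 2 pairs in each. The first value is a hint from the data that libraries of the same number in the EBF2 experiment share something, but the labels do not say what a number marks, and the libraries were not treated as pairs. No paired analysis was possible for Vector against Vehicle because the groups share fewer than 2 numbers.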
